A study of Mus musculus with 16 samples.

Results

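These data show how the response of the mouse quadriceps to a knee ligament injury differed between animals given an inhibitor of the CSF1 receptor and animals given placebo. All 16 of the 16 RNA-seq libraries of the series entered. Each of 8 sample-name stems in the deposited table had an injured and a healthy library, and the injured minus healthy difference in log2 CPM (CPM, counts scaled to a common library size) was taken within each stem. The 4 differences with inhibitor were then compared with the 4 with placebo, which is the interaction of injury and treatment. A stem is called an animal here. The labels mark its libraries L and R and do not say outright that they are the left and right limb of 1 mouse, though they call the libraries of a group biological replicates.

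The study transected the anterior cruciate ligament (ACL) of mice and measured total RNA of the quadriceps. The 4 groups of 4 libraries were healthy quadriceps with inhibitor, injured quadriceps with inhibitor, healthy quadriceps with placebo and injured quadriceps with placebo. Inhibitor animals received 40 mg/kg of a compound named in the labels only as a CSF1-R inhibitor, and placebo animals 0.5% sucrose in their drinking water, for 7 days after the operation. Strain, genotype, age and sex are not given in the sources used here. If a stem is 1 mouse, the healthy quadriceps of both treatments came from operated animals. A change common to both limbs of an animal, whether from the compound or from the operation, is removed by taking the difference within the animal.

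CSF1R is the receptor tyrosine kinase through which the ligands CSF1 and IL-34 keep monocytes and macrophages alive and drive their growth. In damaged muscle, recruited monocytes and resident macrophages clear dead fibres and release signals to satellite cells, the stem cells of muscle, and to fibro-adipogenic progenitors, the main source of its matrix. Loss of quadriceps mass is a known sequel of ACL rupture. In bulk tissue, fewer cells of a type and less RNA per cell cannot be told apart.

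The quadriceps identity of the libraries was checked first. The fast myosin gene Myh4 lay between 30460 and 79410 CPM in all 16 libraries, the skeletal actin gene Acta1 between 23750 and 37220 CPM and muscle creatine kinase Ckm between 13770 and 24000 CPM. Library totals ran from 20117023 to 27133286 counts with inhibitor and from 20976625 to 27132369 with placebo. Prg4, which encodes lubricin, the lubricant of joint surfaces and tendon sheaths, split the libraries: it was at 286.2 CPM in the injured quadriceps of placebo animal 3, 251.2 in the healthy quadriceps of placebo animal 4, 220.3 in the injured quadriceps of placebo animal 2 and 169 in the healthy quadriceps of inhibitor animal 1, and between 3.97 and 19.47 CPM in the other 12. These 4 libraries are healthy samples in 2 animals and injured samples in the other 2. In the inhibitor minus placebo comparison, those of inhibitor animal 1 and placebo animals 2 and 3 enter with a minus sign. That of placebo animal 4 enters with a plus sign. Many gene-group medians are also given without these 4 libraries. Those fits also leave out the pairing of the libraries of an animal, so they differ from the main fit in that as well.

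Promoter windows are shown for 4 genes described below: Chrna1 and Musk from the denervation genes, Cxcl10 from the chemokines and Ifi35, the gene with the smallest p for a difference. The sequences are the 250 bases before the RefSeq start site in GRCm38.p6, written 5′ to 3′. Capitals mark CAGCTG, an E-box form bound by myogenic factors, in the first pair, and TTTC, any 2 bases and TTTC, the core of the interferon-stimulated response element, in the other pair. Both were searched on both strands and do not overlap each other.
Chrna1 (chr2:73580339-73580588, minus strand): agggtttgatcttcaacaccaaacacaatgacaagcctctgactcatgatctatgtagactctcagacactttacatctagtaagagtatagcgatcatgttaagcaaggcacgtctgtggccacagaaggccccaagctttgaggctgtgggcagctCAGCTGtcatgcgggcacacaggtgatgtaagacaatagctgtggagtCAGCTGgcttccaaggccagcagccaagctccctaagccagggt
Musk (chr4:58285712-58285961, plus strand): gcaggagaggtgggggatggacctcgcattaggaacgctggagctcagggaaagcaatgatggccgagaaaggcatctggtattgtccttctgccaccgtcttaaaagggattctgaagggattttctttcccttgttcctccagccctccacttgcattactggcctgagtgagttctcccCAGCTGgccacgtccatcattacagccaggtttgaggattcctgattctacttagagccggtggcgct
Cxcl10 (chr5:92348890-92349139, minus strand): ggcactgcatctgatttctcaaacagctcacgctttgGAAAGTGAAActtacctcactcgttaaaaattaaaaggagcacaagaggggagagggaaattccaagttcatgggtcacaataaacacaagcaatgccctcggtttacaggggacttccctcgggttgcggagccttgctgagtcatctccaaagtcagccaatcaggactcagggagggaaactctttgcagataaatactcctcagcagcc
Ifi35 (chr11:101448162-101448411, plus strand): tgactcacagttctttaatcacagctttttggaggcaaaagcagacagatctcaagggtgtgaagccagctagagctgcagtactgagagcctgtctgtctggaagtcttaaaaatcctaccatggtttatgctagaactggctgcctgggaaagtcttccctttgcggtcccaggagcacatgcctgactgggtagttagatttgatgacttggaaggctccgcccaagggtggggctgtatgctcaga

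Chrna1 held CAGCTG 92 and 44 bases before its start site and Musk held it 68 bases before. Over the whole RefSeq windows of 300 bases, which run from 250 before to 50 after the start, CAGCTG occurred in 16.3% of 32851 windows and in 4 of the 12 denervation genes with a window, of 19 tested. Cxcl10 carried the interferon motif 213 bases before its start. That motif occurred in 3.4% of all windows and in 13 of the 21 interferon-stimulated genes with a window, of 27 tested. These letters were absent from the Ifi35 window. The matches describe the sequences and were not tested as binding sites.

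No single gene separated the injury response with inhibitor from that with placebo once all genes were taken into account. edgeR's quasi-likelihood test with the animal as a block called 0 of 15411 genes (0%) at a Benjamini-Hochberg adjusted p of 0.05, and the smallest adjusted p was 0.992. For the 78 genes picked for description the adjusted p was between 0.992 and 0.999, so none of them passed, and beside each difference an exact two-sided permutation p over the 8 animals is given, unadjusted. That p compares the means of the within-animal log2 CPM differences, which can depart from the fitted difference beside it. It cannot go below 0.0286 with 4 animals against 4, the value reached by 28 of the 78 genes. For the genes picked because their animals do not overlap or have opposite signs it follows from the choice and is left out. Genes named for the smallest edgeR p of their list keep their exact p. That choice favours a small value, so it is a description and not a test. At an unadjusted p of 0.05, 311 genes passed (2.02%), of which 162 had a higher injury difference with inhibitor (1.05%) and 149 a lower one (0.967%). The limma-based tests also called 0 genes. DESeq2 called 1 gene, Ibsp, a bone and mineralised-matrix protein, at an adjusted p of 0.000561. Ibsp was above 0 in no library other than the 4 highest in Prg4, at 1.784, 4.057, 1.272 and 1.644 CPM, and its edgeR p was 0.296.

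Each side of the comparison gave 0 called genes as well. Injury with placebo had 888 genes at an unadjusted edgeR p of 0.05 (5.76%) and none at the adjusted threshold (0%). Injury with inhibitor had 215 at the unadjusted p (1.4%) and none adjusted (0%). The median difference of all 15411 genes was -0.0033 on the log2 scale, and 50.5% of all genes were lower with inhibitor.

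The size of the differences between the injured and healthy quadriceps of an animal was also compared, by 2 measures chosen after the values of the animals had been seen. The SD of the within-animal log2 difference over all tested genes was 0.473, 0.625, 0.565 and 0.689 in inhibitor animals 1 to 4 and 0.741, 1.00, 0.977 and 0.790 in placebo animals 1 to 4. All 4 inhibitor animals were below all 4 placebo animals, with means of 0.588 ± 0.092 (SD, n = 4) and 0.878 ± 0.13 (SD, n = 4) and a two-sided exact permutation p of 0.0286, the smallest that 4 against 4 can give. Over the 10245 genes of mean log2 CPM of at least 2, the share that differed by over 2-fold was 0.283%, 2.03%, 1.23% and 2.05% with inhibitor and 4.55%, 9.18%, 7.97% and 4.58% with placebo, again without overlap (exact permutation p = 0.0286, n = 4 and 4, two-sided). Because of that choice these p-values are a description and not an independent test, and they were not adjusted over the 2 measures. Without placebo animal 4 the groups still did not overlap on either, and the exact permutation p of 0.0571 was the smallest that 4 against 3 can give. Over the 3610 genes of mean log2 CPM of at least 5, the share of genes did not overlap (at most 1.25% with inhibitor, at least 1.77% with placebo), whereas the SD did through inhibitor animal 2 (0.409, against 0.384 in placebo animal 4; exact permutation p = 0.0857). Placebo animal 1 and inhibitor animals 2, 3 and 4 hold none of the 4 libraries highest in Prg4, and the SD of 0.741 in the first compares with 0.565 to 0.689 in the other three.

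The direction of the placebo response was not shared by all animals. Genes that differed by over 2-fold were mostly up in placebo animal 1 (375 up, 91 down), animal 2 (715 up, 225 down) and animal 3 (771 up, 46 down), and mostly down in placebo animal 4 (68 up, 401 down). Whether the healthy and injured labels of placebo animal 4 are exchanged was not tested, and an exchange would turn the sign of each of its differences. Across genes, the differences of placebo animal 3 had a Spearman's rho of 0.38 with animal 1 and 0.42 with animal 2, whereas placebo animal 4 had -0.19, -0.45 and -0.42 with animals 1, 2 and 3. Among the 4 inhibitor animals the 6 rho values lay between -0.065 and 0.108. These are values across genes, which are not independent replicates. The limbs entering the differences of placebo animals 2, 3 and 4 include 3 of the libraries highest in Prg4, and the part of these libraries in the correlations was not tested.

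**Figure D1:**
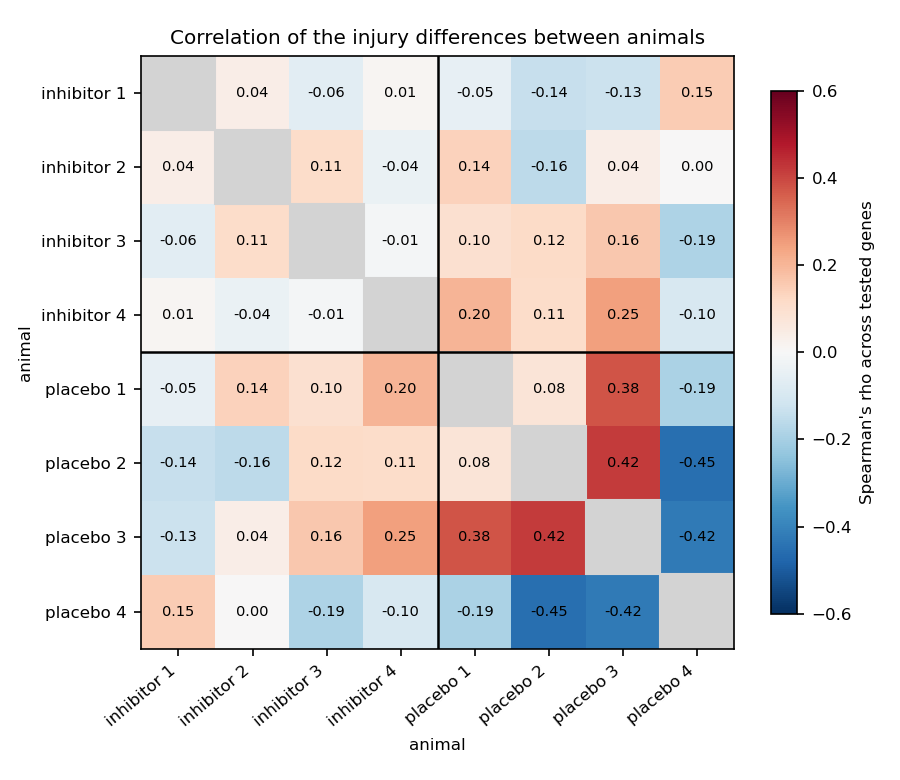
Spearman's rho of the injured minus healthy log2 CPM differences across 15411 genes for each pair of the 8 animals; the black lines divide inhibitor from placebo animals. Placebo animal 3 sits at 0.38 and 0.42 with placebo animals 1 and 2, placebo animal 4 is negative with all 3, and pairs of inhibitor animals lie near 0.

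Genes of the CSF1 axis came first among the groups. Of the 10 members tested, 9 had a lower injury difference with inhibitor and none passed edgeR's unadjusted p of 0.05. The list median was -0.71, beside -0.0033 over all genes. It was -1.20 without placebo animal 4 and -0.22, with 7 of 10 lower, without the 4 libraries highest in Prg4. Csf1r itself (chr18:61100598-61132149, GRCm38) was at 14.5, 8.48, 6.97 and 3.39 CPM in the healthy and 9.51, 6.03, 11.6 and 7.85 in the injured quadriceps of inhibitor animals 1 to 4. In placebo animals 1 to 4 it was at 1.83, 12.7, 3.45 and 29.9 CPM in the healthy and 16.4, 63.8, 60.0 and 10.4 in the injured limb. Placebo animals 1, 2 and 3 were thus higher after injury by 3.11, 2.32 and 4.09 on the log2 scale and placebo animal 4 was lower by 1.52, so the placebo differences straddled those with inhibitor, -0.60, -0.49, 0.73 and 1.19. The fitted difference was -1.99 ± 1.29 (SE, exact p = 0.2).

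The ligands were nearer to 0 than the receptor. Csf1 had a difference of -0.38 ± 0.38 and Il34, the second ligand, -0.31 ± 0.35 on the log2 scale. Spi1, the PU.1 factor that switches on Csf1r in myeloid cells, was at -1.91 ± 1.08 (exact p = 0.2), and Csf2ra, a GM-CSF receptor chain, at -1.72 ± 0.97 (p = 0.171). Both had placebo animals 1 to 3 above all inhibitor animals and placebo animal 4 below them.

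**Figure D2:**
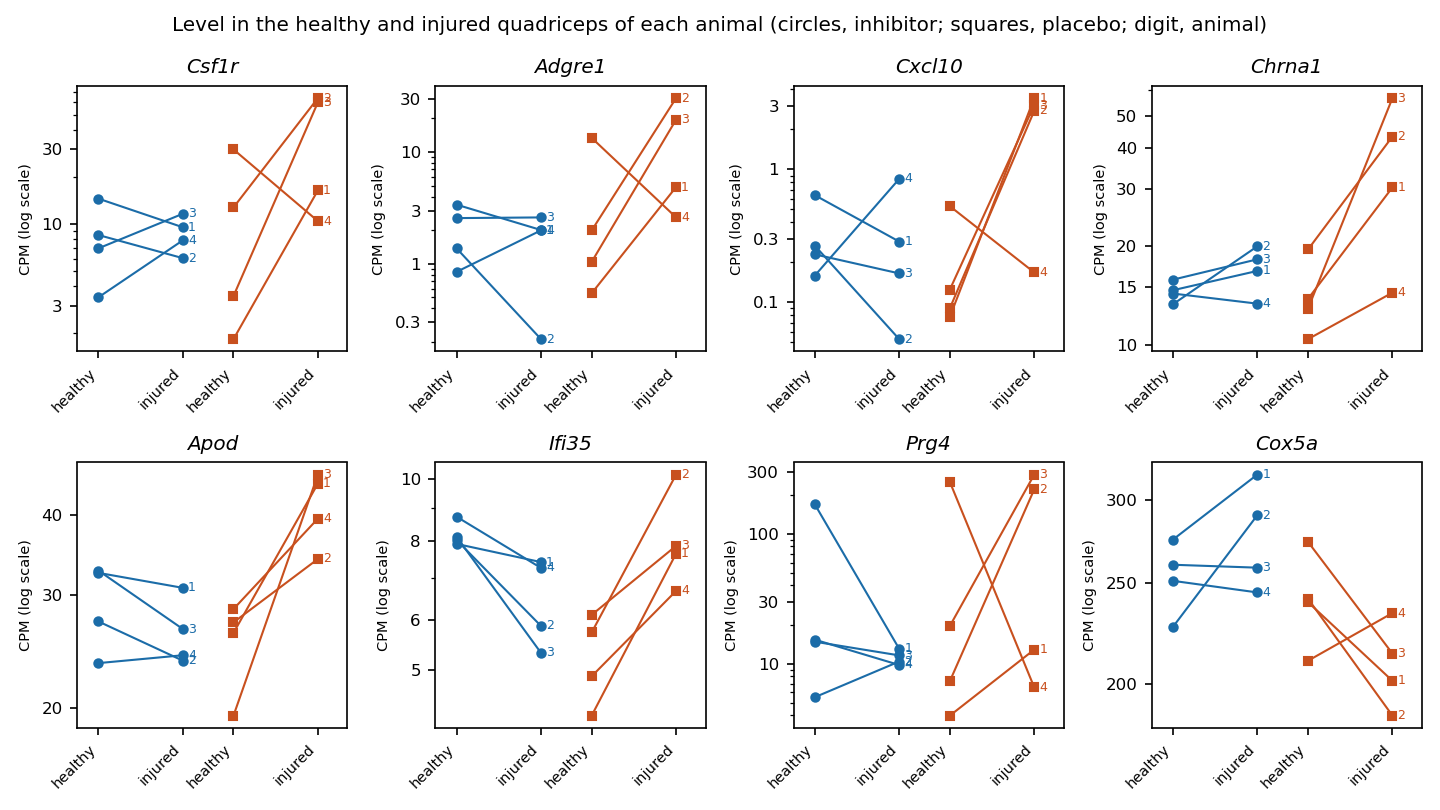
CPM on log axes in the healthy and injured quadriceps of each animal, joined by a line, for 8 genes; circles are inhibitor animals, squares placebo animals, and the digit is the animal. For Csf1r, Adgre1, Cxcl10 and Prg4 placebo animal 4 runs against placebo animals 1, 2 and 3, while Apod and Ifi35 are higher after injury in all 4 placebo animals.

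Macrophage markers had the median farthest from 0 of the 33 lists. All 30 members had a lower injury difference with inhibitor, against 50.5% of all tested genes, with a list median of -2.03; 1 passed edgeR's unadjusted p of 0.05, where 0.967% of all genes did in that direction. The median injury effect of the list was 2.38 with placebo and -0.00076 with inhibitor. By animal, the list medians were -0.58, -0.68, 0.67 and 0.42 with inhibitor and 1.99, 3.50, 4.05 and -2.20 with placebo. Summed over the list, the level in placebo animals 1 to 4 went from 30.5, 85.9, 41.6 and 412.1 CPM in the healthy limb to 132.3, 854.6, 667.8 and 90.1 CPM in the injured one. With inhibitor, healthy limbs summed to between 43.2 and 120.6 CPM and injured limbs to between 44.46 and 101.2 CPM. The healthy limb of placebo animal 4 was therefore above every inhibitor library, and no gene of this list separated the 4 animals of one treatment from the 4 of the other.

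Adgre1, which encodes the F4/80 surface antigen of mouse macrophages, showed this in full. It was at 3.38, 1.38, 2.57 and 0.847 CPM in healthy and 2.01, 0.212, 2.60 and 1.99 in injured quadriceps with inhibitor. With placebo it was at 0.545, 1.99, 1.04 and 13.4 CPM in healthy and 4.87, 30.5, 19.5 and 2.60 in injured quadriceps. Injury differences of 2.97, 3.88 and 4.12 in placebo animals 1 to 3 lay above the inhibitor range of -2.30 to 1.16, and that of placebo animal 4, -2.33, below it. The difference was -3.01 ± 1.70 (SE, exact p = 0.171).

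Fcgr3, Cd68 and C1qa also had placebo animals 1 to 3 above and placebo animal 4 below every inhibitor animal. Fcgr3, an Fc receptor, was at -2.99 ± 1.55 (exact p = 0.143), the lysosomal protein gene Cd68 at -2.72 ± 1.93 (p = 0.314) and the complement gene C1qa at -2.03 ± 1.61 (p = 0.314). Mertk, the receptor for apoptotic cells, was the member that passed edgeR's unadjusted p of 0.05, at -1.12 ± 0.49 (exact p = 0.0857). Its placebo differences were 0.94, 1.08, 1.40 and -0.55 and its inhibitor differences -0.60, -1.002, -0.26 and 0.37, so the groups overlapped through placebo animal 4. For Lyve1, a marker of resident macrophages, placebo animal 2, at 0.57, lay within the inhibitor range of -0.489 to 1.499, and the difference was -1.14 ± 1.10 (exact p = 0.343).

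Genes of monocyte recruitment and antigen presentation were lower in the same animals. The monocyte list had 7 of 8 tested members with a lower difference and a median of -1.66. With no animal block and all libraries kept, that median was -1.02. Without the 4 libraries highest in Prg4, also with no block, it was -0.10, with 4 of 6 lower. The MHC class II and dendritic cell list had 10 of 11 members lower and a median of -1.87 in the main fit. Ccr2, the receptor that brings monocytes out of the marrow, was at -2.16 ± 1.55 (exact p = 0.257), with placebo differences of 2.14, 4.02, 4.37 and -1.88. H2-Aa, a class II chain, was at -1.95 ± 1.13 (exact p = 0.143), and H2-DMa, which loads peptide onto class II molecules, at -1.87 ± 0.70 (p = 0.0571). For H2-DMa the inhibitor differences were -1.08, -0.53, 0.49 and -0.26 and the placebo ones 0.73, 2.42, 2.86 and -0.09, so only placebo animal 4 fell within the inhibitor range. Markers of neutrophils, T, NK and mast cells were lower for 10 of 11 members, with a median of -0.87 and none past edgeR's unadjusted p of 0.05.

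Ifi35, an interferon-induced gene outside the fixed interferon list, had the smallest p of all 15411 genes. Its level (chr11:101448407-101458698) was 7.91, 8.03, 8.12 and 8.73 CPM in the healthy and 7.41, 5.87, 5.33 and 7.25 in the injured limb with inhibitor, and 4.24, 5.74, 6.12 and 4.89 in the healthy and 7.64, 10.2, 7.86 and 6.67 in the injured limb with placebo. All 4 inhibitor animals were lower after injury (-0.09, -0.44, -0.60 and -0.27) and all 4 placebo animals higher (0.84, 0.82, 0.36 and 0.44). The difference was -0.98 ± 0.22 (SE, edgeR adjusted p = 0.992). Healthy limbs did not overlap between treatments either, at 8.20 ± 0.367 CPM with inhibitor and 5.25 ± 0.842 with placebo (SD, n = 4).

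The interferon-stimulated genes as a list had a lower injury difference with inhibitor in 27 of 27 members, with a median of -0.79 and 3 members past edgeR's unadjusted p of 0.05, as were 0.967% of all genes in that direction. The median injury effect was 0.70 with placebo and -0.11 with inhibitor. List medians by animal were -0.44, 0.00022, -0.15 and 0.34 with inhibitor and 0.38, 1.31, 1.67 and -0.57 with placebo, so placebo animals 1 to 3 were above every inhibitor animal and placebo animal 4 below every one. Ifih1, a sensor of viral double-stranded RNA, had a difference of -0.75 ± 0.26 (exact p = 0.0571).

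Cxcl10, an interferon-induced chemokine that attracts T cells, was below 1 CPM outside 3 libraries. It was at 3.44, 2.76 and 3.05 CPM in the injured limbs of placebo animals 1, 2 and 3 and between 0.0529 and 0.848 CPM in the other 13 libraries, where 3 counts amount to 0.111 to 0.149 CPM. The difference was -3.75 ± 1.67 (exact p = 0.114). Cxcl14, a chemokine of stromal cells, was at -0.79 ± 0.25 (exact p = 0.0571), with inhibitor differences of 0.28, -0.95, -0.64 and -0.13 and placebo differences of 0.24, 0.28, 0.79 and 0.41. Inhibitor animal 1 fell within the placebo range for this gene. Of the 12 cytokines and chemokines tested, 10 were lower, with a median of -0.64.

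Denervation-responsive genes, among them the acetylcholine receptor genes that muscle turns on when nerve activity is lost, were lower in 14 of 19 members, with a median of -0.67 and 4 members past edgeR's unadjusted p of 0.05, beside 0.967% of all genes. Chrna1, the receptor's alpha subunit (chr2:73563215-73580338), was at 14.7, 13.3, 15.8 and 14.3 CPM in healthy and 16.8, 20.01, 18.3 and 13.4 in injured limbs with inhibitor. With placebo it was at 13.8, 19.6, 12.9 and 10.4 CPM in healthy and 30.3, 43.3, 56.8 and 14.4 in injured limbs. All 4 placebo animals were higher after injury, by 1.13, 1.14, 2.13 and 0.47, and the inhibitor animals were at 0.20, 0.59, 0.21 and -0.10, which overlaps them through placebo animal 4. The difference was -1.003 ± 0.31 (SE, exact p = 0.0571).

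Musk, the kinase that clusters receptors at the neuromuscular junction, was at -0.74 ± 0.28 (exact p = 0.0857). Its placebo differences were 1.10, 0.78, 0.27 and 1.01 and its inhibitor differences -0.08, 0.27, 0.40 and -0.36. Here placebo animal 4 followed placebo animals 1 and 2, and the overlap came from placebo animal 3. Without the 4 libraries highest in Prg4, Chrna1 was at -0.29 and Musk at -0.59, and the median of the denervation list was -0.09.

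Satellite cell and regeneration genes were lower in 17 of 19 members, with a median of -0.57 and none past edgeR's unadjusted p of 0.05. Myog, which drives myoblasts to differentiate, was at 5.67, 44.6, 33.7 and 2.94 CPM in the injured limbs of placebo animals 1 to 4 and between 3.60 and 7.27 CPM in those with inhibitor. Myh3, the embryonic myosin of new fibres, was at 12.7, 145, 252 and 3.06 CPM in the injured limbs with placebo and between 2.93 and 9.66 CPM with inhibitor. The high values thus belonged to placebo animals 2 and 3, whose injured libraries are among the 4 highest in Prg4. The others of these 4, the healthy limbs of placebo animal 4 and inhibitor animal 1, had Myog at 5.78 and 6.36 CPM. Myh3 was at 14.1 and 5.53 CPM there. The differences were -1.88 ± 1.10 (exact p = 0.257) for Myog and -2.29 ± 2.08 (p = 0.343) for Myh3. Pax7, the satellite cell factor, was at -0.57 ± 0.32 (exact p = 0.0571). Cell cycle genes had 21 of 23 members lower and a median of -0.80.

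Genes of muscle wasting were mixed. Of 27 atrophy genes, 14 were lower with inhibitor, with a median of -0.05 and 4 members past edgeR's unadjusted p of 0.05, all lower, beside 0.967% of all genes. Trim63, the MuRF1 ubiquitin ligase, was at 181, 191, 164 and 221 CPM in healthy and 180, 148, 111 and 155 in injured limbs with inhibitor, and at 230, 118, 232 and 185 in healthy and 249, 140, 183 and 212 in injured limbs with placebo. Inhibitor animals 2, 3 and 4 were lower after injury, by 0.37, 0.56 and 0.51, inhibitor animal 1 was at -0.01, and placebo animal 3, at -0.34, overlapped them. The difference was -0.42 ± 0.18 (exact p = 0.0571). Fbxo32, the other muscle ubiquitin ligase of that pathway (atrogin-1), was at -0.22 ± 0.28 (exact p = 0.514), and Mstn, the growth inhibitor myostatin, at -0.24 ± 0.20 (p = 0.371).

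Eif4ebp1, a brake on translation, and the growth factor-induced transcription factor gene Myc had the smallest p of the atrophy list, at -0.50 ± 0.19 (exact p = 0.0571) and -0.92 ± 0.37 (p = 0.0857). The proteasome subunits were lower in 26 of 27 members by a small amount, a median of -0.09. Psma7, a subunit of the core particle, was 1 of 2 subunits whose inhibitor animals were all below the placebo animals, beside 0.746% of all genes, with inhibitor differences between -0.22 and -0.11, placebo differences between -0.06 and 0.40 and a difference of -0.42 ± 0.13. Autophagy genes were divided, 10 lower and 10 higher, with a median of 0.01.

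Genes of energy metabolism lay on the other side of 0. The 33 tested nuclear genes of oxidative phosphorylation all had a higher injury difference with inhibitor, with a median of 0.24, and so did 13 of 13 mitochondrially encoded genes (0.34), 25 of 25 genes of fatty acid oxidation and its regulators (0.34) and 23 of 23 genes of glycolysis and glucose uptake (0.17). These gene groups hold 1, 0, 3 and 0 members past edgeR's unadjusted p of 0.05, where 1.05% of all genes did in that direction. For oxidative phosphorylation the list medians by animal were 0.07, 0.34, -0.0024 and -0.06 with inhibitor and 0.02, -0.46, -0.30 and 0.17 with placebo, so the order rests on inhibitor animal 2 and placebo animals 2 and 3. Without the 4 libraries highest in Prg4, 33 of 33 were still higher, with a median of 0.28, as were 11 of 13 mitochondrially encoded genes (0.27), 20 of 25 fatty acid oxidation genes (0.16) and 19 of 23 glycolysis genes (0.15).

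Esrra, the estrogen-related receptor that activates mitochondrial genes, was higher after injury in all 4 inhibitor animals (0.22, 0.19, 0.10 and 0.11) and lower in all 4 placebo animals (-0.46, -0.14, -0.64 and -0.02). Its level was 87.4 ± 4.27 CPM in healthy and 97.3 ± 7.49 in injured limbs with inhibitor, and 87.1 ± 19.4 and 69.7 ± 11.6 with placebo (SD, n = 4). The difference was 0.47 ± 0.15 (SE). Ppargc1a, its coactivator PGC-1 alpha, was at 0.58 ± 0.23 (exact p = 0.0857), with inhibitor differences of 0.35, 0.48, 0.24 and 0.23 and placebo differences of -0.02, -0.91, -0.41 and 0.32; placebo animal 4 fell among the inhibitor animals.

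Single genes of the respiratory chain are given next. Sdhd, a membrane anchor of complex II, was at 0.33 ± 0.12 (exact p = 0.0286), with inhibitor differences between 0.11 and 0.36 and placebo differences between -0.25 and 0.03, which did not overlap. It was named for the smallest p of the oxidative phosphorylation list. Cox5a, a subunit of cytochrome oxidase, was at 0.34 ± 0.16 (exact p = 0.0857). Ndufaf4, an assembly factor of complex I, and Cox10, which makes the haem of cytochrome oxidase, were at 0.46 ± 0.15 and 0.42 ± 0.13. Both were picked because their animals do not overlap. Slc2a4, the insulin-responsive glucose transporter GLUT4, was at 0.33 ± 0.16 (exact p = 0.143).

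With all 8 animals, fibre-type genes were close to 0 as lists. Fast-fibre genes had a median of 0.01 and slow-fibre genes of -0.09, with 9 of 16 slow-fibre members lower. The slow-fibre median was -0.585 without placebo animal 4 and 1.08 without the 4 libraries highest in Prg4. By animal it ranged from 0.17 to 2.88 with inhibitor and from -0.87 to 2.29 with placebo. Myh7, the slow myosin, ranged from 5.50 to 1546 CPM over the 16 libraries, and its within-animal differences were 0.26, 7.81, 0.00 and -1.94 with inhibitor and 3.98, -0.70, 3.62 and -3.87 with placebo. The fitted difference of -0.49 ± 3.18 has an SE larger than its own size. The mean within-animal differences, 1.53 with inhibitor and 0.76 with placebo, had the opposite order (exact p = 0.8). Myh4 was at 0.10 ± 0.32 (exact p = 0.657), and its sign turned in 4 of the alternatives.

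Matrix genes were lower in 42 of 43 members, with a median of -0.90 and none past edgeR's unadjusted p of 0.05. Their list medians by animal were -0.20, -0.15, 0.39 and 0.34 with inhibitor and 1.11, 2.10, 2.03 and -2.12 with placebo. Col1a1, the main chain of type I collagen, was at 17.2, 75.4, 88.5 and 2095 CPM in the healthy limbs of placebo animals 1 to 4 and at 44.2, 1469, 656 and 68.7 in their injured limbs, against 66.1 to 118 and 85.7 to 208 CPM in healthy and injured limbs with inhibitor. Its 3 highest libraries are the placebo ones among the 4 highest in Prg4. The fitted difference was -1.40 ± 1.93. Inhibitor minus placebo in the mean within-animal differences was -0.59 (exact p = 0.857). With no animal block and all libraries kept, the fitted difference was 0.39. The matrix list then had 34 of 43 members lower and a median of -0.41. Without the 4 libraries highest in Prg4, also with no block, the fitted difference was 0.59. The matrix list then had 23 of 43 members lower and a median of -0.05.

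Progenitor markers showed a narrower spread. All 15 tested markers of fibro-adipogenic progenitors were lower, with a median of -0.68. Of these, 1 was past edgeR's unadjusted p of 0.05, beside 0.967% of all genes in that direction. Pdgfra, their surface receptor, was at -0.88 ± 0.45 (exact p = 0.171), with placebo differences of 1.40, 0.60, 1.66 and -0.46 and inhibitor differences between -0.53 and 0.23. The matrix proteoglycan gene Dcn was at -0.68 ± 0.39 (exact p = 0.314). With no animal block and all libraries kept, the median of the list was -0.48. Without the 4 libraries highest in Prg4, also with no block, 14 of 15 markers were lower, with a median of -0.40.

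Apod, which encodes the lipid carrier apolipoprotein D, had the smallest p after Ifi35. It was (chr16:31296192-31314808) at 32.5, 27.3, 32.7 and 23.5 CPM in healthy and 30.8, 23.7, 26.6 and 24.2 in injured limbs with inhibitor. With placebo it was at 26.2, 27.2, 19.5 and 28.5 CPM in healthy and 44.7, 34.1, 46.2 and 39.5 in injured limbs. All 4 injured placebo libraries were above all 12 others, the within-animal differences were -0.08, -0.20, -0.30 and 0.04 against 0.77, 0.33, 1.24 and 0.47, and placebo animal 4 kept the direction of the other placebo animals. The difference was -0.84 ± 0.19 (SE), -0.92 without placebo animal 4 and -0.87 without the 4 libraries highest in Prg4.

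Non-overlap between all animals of the treatments was counted over all genes. All 4 inhibitor differences lay above all 4 placebo differences for 152 genes (0.986%) and below them for 115 (0.746%). With treatments assigned at random, non-overlap in either direction has a probability of 0.0286 per gene. These shares do not exceed it, so non-overlap alone does not set a gene apart. For 43 genes (0.279%) all inhibitor animals were up and all placebo animals down, and for 31 (0.201%) the reverse. The rule for named genes took the 10 with the smallest p in each direction among 159 such genes of sufficient level, 95 above and 64 below.

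On the lower side these were Ifi35, Apod, Tcf7l2, Maml1, Ralgds, Cmklr1, Pcolce2, Psma7, Avpi1 and Myoc. Tcf7l2, a transcription factor of Wnt signalling that fibro-adipogenic progenitors express, was at -0.91 ± 0.23: its level was 5.50 ± 0.361 CPM in healthy and 4.53 ± 0.125 in injured limbs with inhibitor, and 4.00 ± 0.704 and 6.14 ± 0.587 with placebo (SD, n = 4). Maml1, a coactivator of Notch signalling, was at -0.59 ± 0.16, and its 4 inhibitor animals were all lower after injury and its 4 placebo animals all higher. Cmklr1, the chemerin receptor of macrophages and other cells, was at -1.10 ± 0.33, with a range of -1.06 to 0.27 with inhibitor and 0.28 to 1.41 with placebo. Pcolce2, an enhancer of procollagen processing, and Myoc, a secreted glycoprotein, were at -1.47 ± 0.44 and -0.86 ± 0.28.

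On the higher side the 10 genes were Spsb3, Hivep1, Tmem37, Dgkq, Mief2, Ahdc1, Ybx2, Mcrip2, Mfsd4b1 and Cox10, with differences between 0.39 and 0.86. Mief2, an adaptor of the mitochondrial fission machinery, was at 77.9, 72.2, 75.7 and 73.3 CPM in healthy and 87.8, 92.2, 95.2 and 85.6 in injured limbs with inhibitor, and at 66.6, 88.5, 83.8 and 66.4 and at 66.6, 68.2, 72.2 and 67.5 with placebo. All 4 injured inhibitor libraries exceeded their healthy partners, and the difference was 0.41 ± 0.13. Dgkq, a diacylglycerol kinase, was at 0.78 ± 0.23, with inhibitor animals between 0.11 and 0.63 and placebo animals between -0.53 and -0.04.

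**Figure D3:**
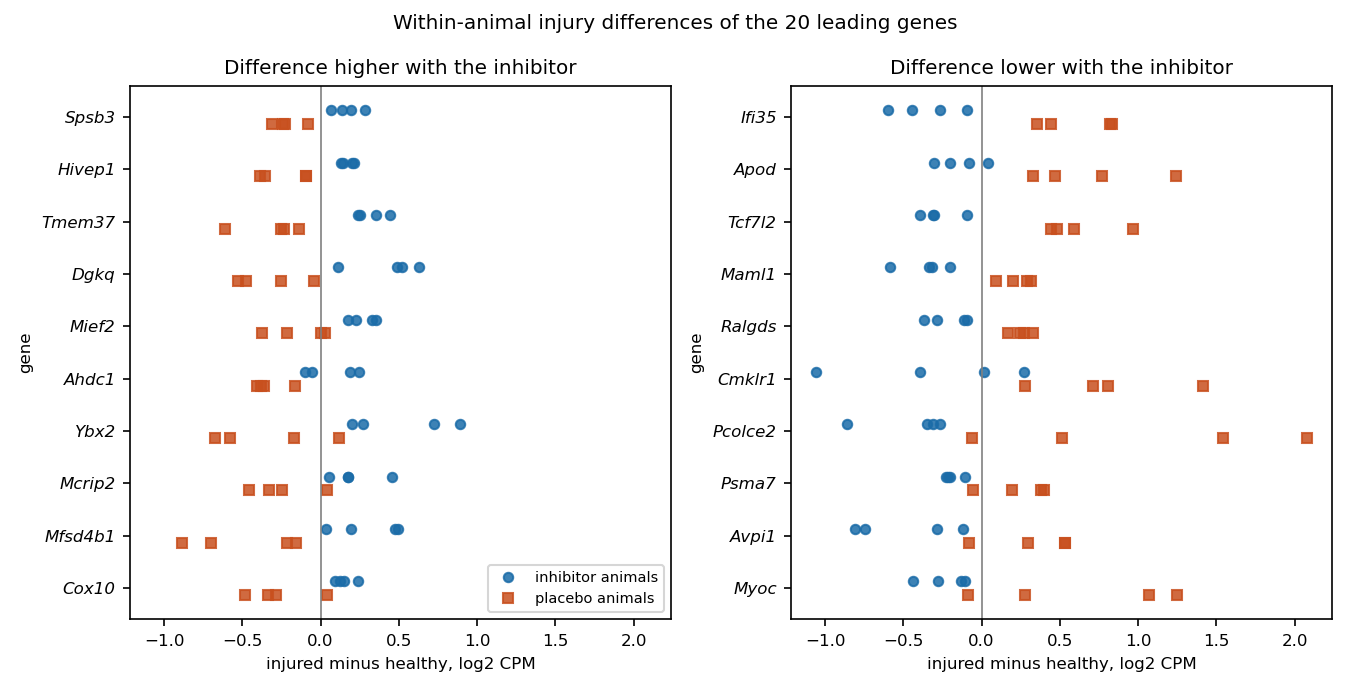
Injured minus healthy log2 CPM of each animal for the 10 genes with the smallest p in each direction among genes whose animals do not overlap; circles are inhibitor animals and squares placebo animals, and the vertical line marks no difference. The groups do not overlap for any of the 20, by choice. They lie on opposite sides of 0 for Ifi35, Tcf7l2, Maml1, Ralgds, Spsb3, Hivep1, Tmem37, Dgkq and Mfsd4b1.

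Few vessel or nerve markers passed even an unadjusted threshold. Endothelial markers had a higher difference with inhibitor in 16 of 17 members, with a median of 0.20. Of these, 1 was past edgeR's unadjusted p of 0.05, beside 1.05% of all genes in that direction. Without the 4 libraries highest in Prg4, 11 of 17 were higher and the median was 0.09. Sox17, an arterial endothelial factor, was at 0.54 ± 0.21 (exact p = 0.0286), with inhibitor differences between -0.11 and 0.24 and placebo differences between -0.74 and -0.14, which did not overlap. This gene was named for the smallest p of the endothelial list. Schwann cell and myelin markers were lower in 11 of 12 members (median -0.28, 0 past that threshold), and their medians by animal, 0.12, -0.26, -1.06 and 0.69 with inhibitor and 0.32, -0.75, -0.01 and 0.81 with placebo, overlapped and spanned 0 in both treatments. Adipocyte markers were lower in 8 of 11 members (median -1.05). That median was -0.089 with no animal block and -0.069 without placebo animal 4. The adipocyte medians by animal, 0.45, -3.96, -1.70 and 4.18 with inhibitor and 0.34, -2.83, 0.73 and 2.39 with placebo, spanned 0 in both treatments. Ribosomal protein genes were lower in 44 of 50 members (median -0.14) and higher in 41 of 50 (median 0.20) without the 4 libraries highest in Prg4.

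Clock genes as a list were close to 0, with 13 of 19 higher and a median of 0.05. Dbp, a clock output factor, was at 11.8 ± 5.07 CPM in healthy and 9.29 ± 3.78 in injured limbs with inhibitor and at 78.6 ± 53.8 and 77.0 ± 45.4 with placebo (SD, n = 4). Placebo animal 1, at 16.04 and 13.4 CPM, overlapped inhibitor animal 2, at 19.1 and 14.8 CPM, in both limbs. The within-animal comparison gave -0.32 ± 0.21 (exact p = 0.2) for Dbp and 0.01 ± 0.28 (p = 0.971) for Per2. Npas2, a partner in the core clock, was at -1.36 ± 0.48 (exact p = 0.0571).

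Heat shock genes had a median of -0.05 and genes of the stress and unfolded protein response of -0.26, with 13 of 18 lower. Ddit3, the stress factor CHOP, went against its list at 0.53 ± 0.18 (exact p = 0.0286), with inhibitor differences of -0.02, 0.43, 0.27 and 0.54 and placebo differences of -0.08, -0.36, -0.27 and -0.18. Hspb1, a small heat shock protein, was at -0.29 ± 0.11 (exact p = 0.0286), with inhibitor animals between -0.13 and 0.13 and placebo animals between 0.22 and 0.35. Neither gene had overlapping animals, and both were named for the smallest p of their lists. Immediate early genes were lower in 15 of 20 members, with a median of -0.31.

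**Figure D4:**
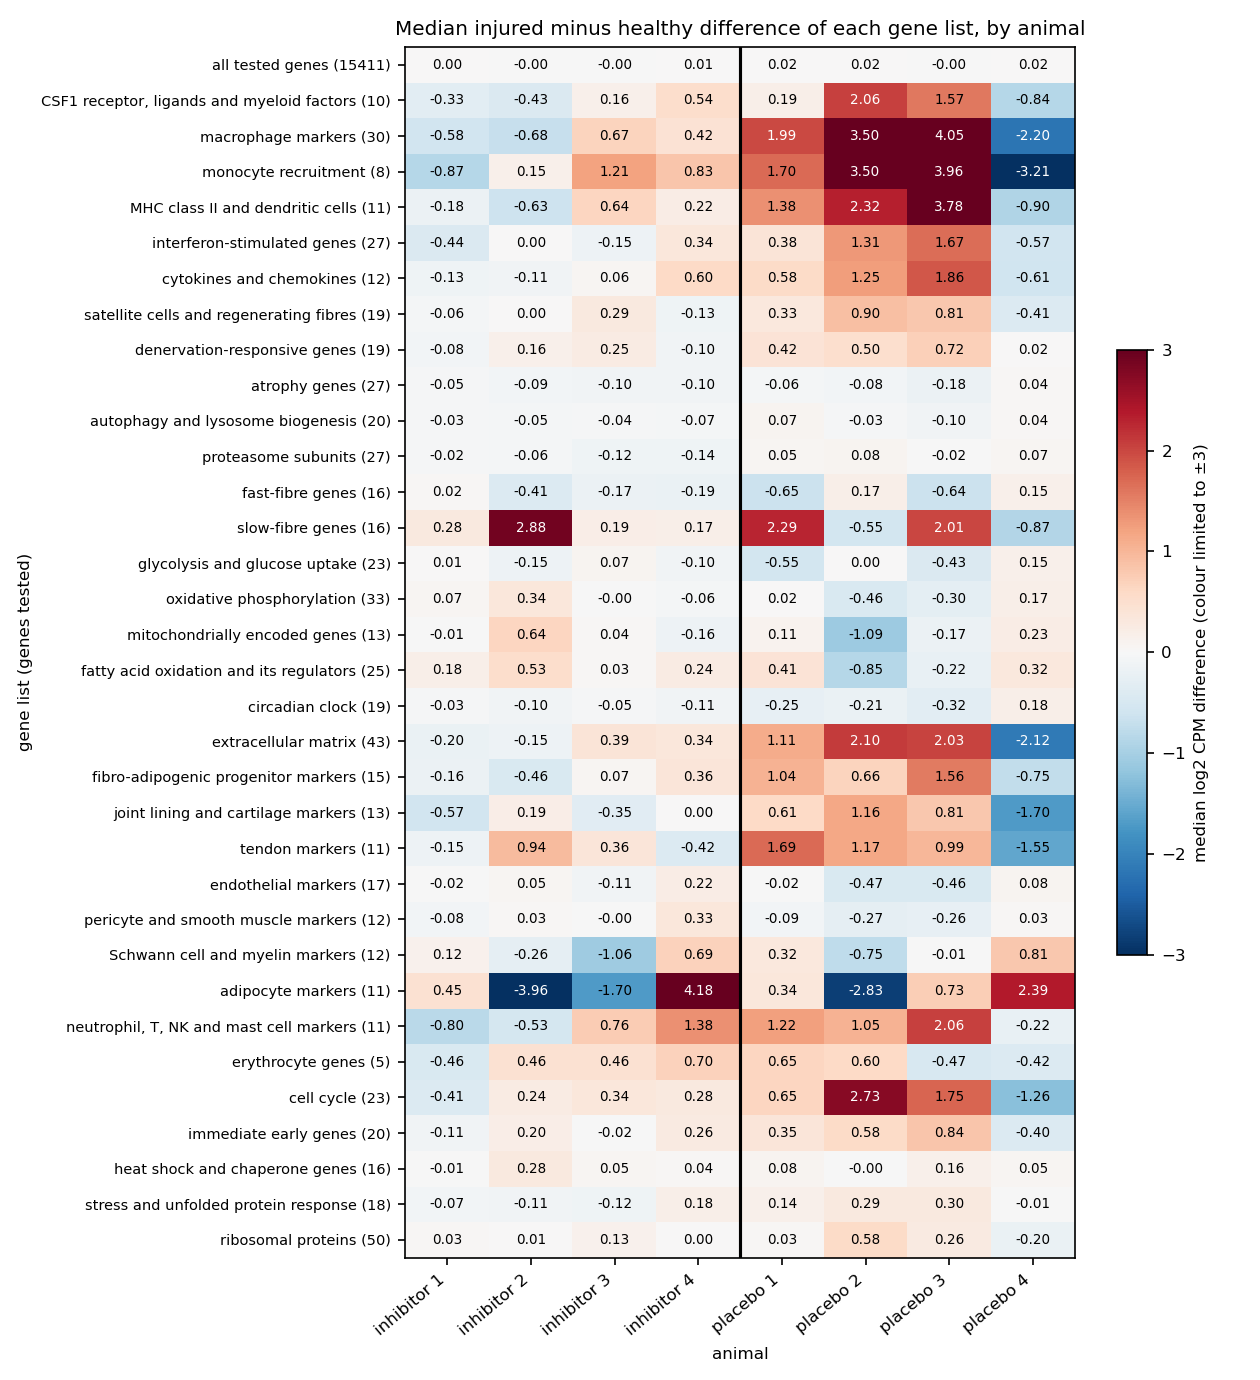
Median injured minus healthy log2 CPM difference of each gene list (rows, with the number of genes tested) in each animal (columns, inhibitor left of the line, placebo right); red is higher and blue lower in the injured limb. The macrophage and matrix lists are 1.99 to 4.05 and 1.11 to 2.10 in placebo animals 1, 2 and 3, and -2.20 and -2.12 in placebo animal 4, with inhibitor animals between.

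Leaving out placebo animal 4 changed the number of called genes. In edgeR's fit of the other animals 246 of 15612 genes (1.58%) passed an adjusted p of 0.05, 238 with a lower injury difference with inhibitor (1.52%) and 8 with a higher one (0.0512%), and 2321 passed an unadjusted p of 0.05 (14.9%). Leaving out any other animal left 0 called genes, with smallest adjusted p between 0.982 and 1. The called genes included 9 of 30 macrophage markers, 10 of 43 matrix genes, 3 of 27 interferon-stimulated genes and 3 of 19 denervation genes, and none of the 33 oxidative phosphorylation genes. Fcgr3 was at -4.14 (adjusted p = 0.00373), Adgre1 at -4.16 (adjusted p = 0.0273), Cd68 at -4.13 (adjusted p = 0.0361), Spi1 at -2.90 (adjusted p = 0.0265), Cxcl10 at -5.10 (adjusted p = 0.0344) and Pdgfra at -1.29 (adjusted p = 0.0448). Chrna1 (-1.24, adjusted p = 0.0448) and Apod (-0.92, adjusted p = 0.0479) also passed, and Csf1r did not (-2.98, adjusted p = 0.0824). Leaving it out was 1 of 8 such alternatives, and these calls describe 7 of the 8 animals.

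The block also mattered to that count. With both limbs of placebo animal 4 left out and no animal block, 1 gene passed (0.00641%), and with only its healthy limb left out, 0 of 15684 (0%), with 945 lower at an unadjusted p of 0.05 (6.03%).

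Joint lining and cartilage markers were examined beside Prg4, itself a member of that list. Of 20 joint lining and cartilage markers 13 were tested, and 10 of the 13 had a lower injury difference with inhibitor, with a median of -0.41. Without the 4 libraries highest in Prg4, 6 of 12 were lower and the median was 0.0012. The summed level of these markers lay between 45.9 and 249.3 CPM in healthy and 63.14 and 67.67 in injured limbs with inhibitor, and between 36.16 and 379.4 in healthy and 51.33 and 395.5 in injured limbs with placebo. In the highest of these sums, Prg4 itself was the largest part. The cartilage collagen gene Col2a1 reached 7.58 CPM in the healthy limb of placebo animal 4 and 2.73 or less elsewhere, whereas Tspan15, another of the markers, was no higher in the 4 libraries than in others, at 8.05, 8.16, 8.94 and 9.90 CPM against 6.20 to 12.2 CPM. Tendon markers were lower for 10 of 11 members, with a median of -0.41. What part these libraries have in the muscle values was not tested beyond leaving them out.

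Without those 4 libraries, in a fit with no animal block, 0 of 15786 genes passed the adjusted threshold (0%), with 156 lower (0.988%) and 234 higher (1.48%) at an unadjusted p of 0.05. Macrophage markers were lower in 25 of the 29 then tested, with a median of -0.58, MHC class II genes in 11 of 11 (-0.96) and interferon-stimulated genes in 22 of 27 (-0.33). With no block and all libraries kept, these medians were -1.69, -1.62 and -0.83. The cytokine list was at -0.21, with 9 of 12 lower, and the neutrophil, T, NK and mast cell list at -0.54. Medians that changed sign included those of satellite cell genes (0.04), cell cycle genes (0.20), tendon markers (0.15), slow-fibre genes (1.08), immediate early genes (0.05), autophagy genes (-0.07) and clock genes (-0.12). The autophagy median was already negative, at -0.0091, with no block and all libraries kept. Schwann cell markers were at -0.62, adipocyte markers at -0.62, atrophy genes at -0.16 and proteasome subunits at -0.019. Ifi35 was at -0.77, Mertk at -1.31, Fcgr3 at -1.75 and Csf1r at -0.69. These fits compare 12 libraries, and placebo keeps 2 injured and 3 healthy ones.

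**Figure D5:**
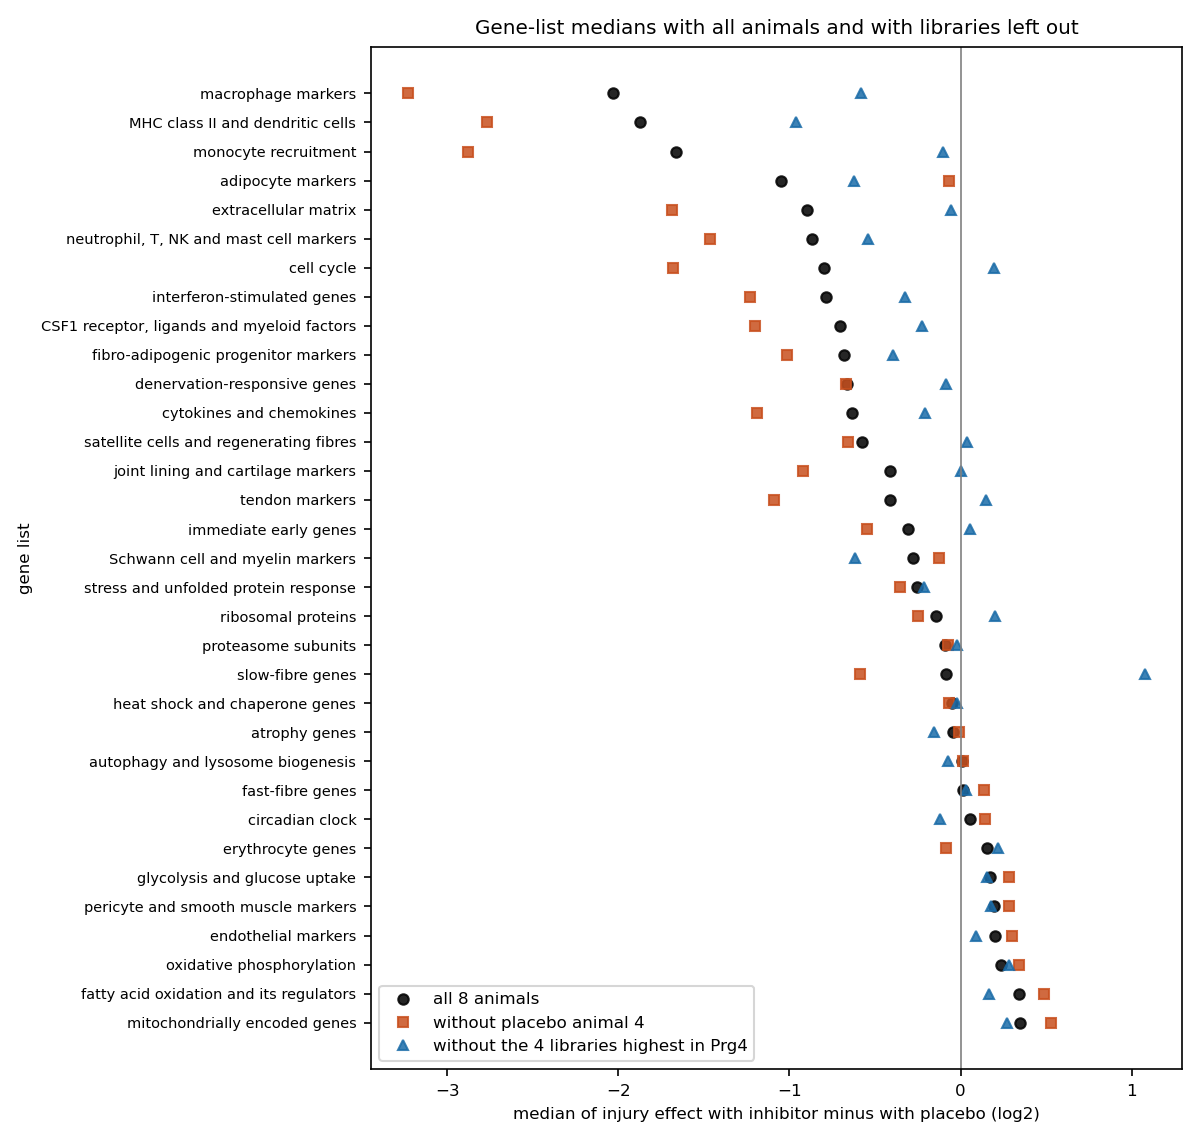
Median over each gene list of the injury effect with inhibitor minus that with placebo (log2), with all 8 animals (circles), without placebo animal 4 (squares) and without the 4 libraries highest in Prg4 (triangles). The macrophage list moves from -2.03 to -3.23 and -0.58, the matrix list from -0.90 to -1.69 and -0.05, and the oxidative phosphorylation list from 0.24 to 0.34 and 0.28. Circles and squares are from fits with the animal as a block and triangles from a fit without it. With no block and all libraries kept, which is not drawn, these lists were at -1.69, -0.41 and 0.25.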

How the data were processed

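Total RNA of mouse quadriceps was extracted with TRIzol and a column kit and sequenced, per the labels. The submitters' processing notes name STAR, Partek and DESeq2 and the builds GRCm38 and mm10, without versions or roles. The authors deposited a table of estimated counts for 17370 genes in 16 libraries: 24.2% of the deposited expected counts are more than 0.01 from a whole number, and the smallest maximum of a gene is 10, so low genes had been removed. Whether strand was used in counting is not given in the sources used here, so reads of overlapping genes cannot be told apart. The injury and treatment rows of the file header match the labels in 16 of 16 columns.

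Counts were rounded to whole numbers. Gene symbols and places came from GENCODE M21 (GRCm38), for 17338 genes. Genes passed a filter at a minimum count of 10 (15411 of 17370), were scaled by TMM and fitted with edgeR 4.0.16 (R 4.3.3; quasi-likelihood, robust, two-sided) with the animal as a block, injury within each treatment and 6 residual degrees of freedom. The contrast is injury with inhibitor minus injury with placebo, adjusted by Benjamini-Hochberg over all tested genes at 0.05. A standard error is the fold change on the log2 scale divided by the square root of the F statistic. Within-animal differences are on the log2 CPM scale with a prior count of 2, which understates the change of low genes. Per-animal values, and the within-animal differences of single genes, were compared by two-sided exact permutation tests over animals.

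The pairing of the libraries comes from the stems of the sample names. The correlation of the 2 libraries' deviations from their group means was 0.226, -0.0444, -0.0111 and -0.0972 in inhibitor animals 1 to 4 and 0.467, -0.177, -0.111 and -0.527 in placebo animals 1 to 4. The fits were also run on simulated counts that held no animal effects. That run cannot show how they behave where an animal or a library stands apart, as here. Alternatives were no replicate block, DESeq2 size factors, no filter, DESeq2 1.42.0, limma 3.58.1 on the differences, limma-voom with quality weights, a prior count of 0.5, and leaving out each animal. Added after seeing the data were fits without the 4 libraries highest in Prg4 and without 1 or both limbs of placebo animal 4, and the spread of the within-animal differences with its alternatives.

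Named genes were any called gene, the 10 of smallest p in each direction among genes of mean log2 CPM of at least 2 whose animals do not overlap, the 5 largest in each direction among those with opposite signs, 25 fixed genes, and, of each of 33 gene lists, the 2 members of smallest p, of which a part is named. The lists hold 680 entries, 632 of them tested. Members and lists were chosen with earlier results of these data known. Ibsp, Col2a1 and the promoter windows were chosen after values had been seen. Windows are from RefSeq (GRCm38.p6).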

Additional observations from a re-analysis of the deposited data

Results flagged for a closer look

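In 222 sets of 4 within-animal differences, 1 animal lay far from the other 3 in 8 cases, by Dixon's test at its 95% critical value. Chance alone gives about 1 in 20 sets. The 8 cases are divided evenly, with 4 in inhibitor and 4 in placebo animals. In placebo animal 4, Fcgr3 was at -2.57 on the log2 scale against 3.49 to 3.79 in the other 3, and Cxcl10 at -1.28 against 3.90 to 4.43. The same animal stood apart upward for Pms2, a DNA mismatch repair gene, at 0.458 against 0.182 to 0.226. Placebo animal 3 was at -0.0909 for Eif4ebp1, against 0.420 to 0.477.

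With inhibitor, animal 1 was at -0.862 for Pcolce2 against -0.345 to -0.268, and at -0.409 for the median of the cell cycle list against 0.237 to 0.342. Its healthy library is among the 4 highest in Prg4, whose part in these values was not tested. Inhibitor animal 2 was at -0.661 for Smoc2, a matrix gene of progenitors, against -0.0751 to 0.0385, and at 2.88 for the median of the slow-fibre list against 0.170 to 0.281.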

How the results depend on the processing

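The count of called genes was 0 in the main fit and with no replicate block (the fit that drops the pairing of limbs), and DESeq2 size factors, no filter, both limma tests and the Prg4 and healthy-limb exclusions also gave 0; DESeq2 gave 1 and the unblocked fit without both limbs of placebo animal 4 gave 1. Leaving out each animal gave 0 to 246. Genes at an unadjusted p of 0.05, 162 higher and 149 lower, became 210 and 213 with no replicate block, 465 and 1126 with limma-voom, 329 and 945 without the healthy limb of placebo animal 4, and 579 and 1466 without both limbs and the block; lower genes were 265 by DESeq2 and 224 by limma on the differences. Leaving out each animal gave 82 to 759 higher and 100 to 1562 lower genes. It gave 243 to 833 genes with all inhibitor animals above and 227 to 1239 below, where fewer animals are less likely to overlap. The highest values, 759, 1562, 833 and 1239, came without placebo animal 4. Leaving out any other animal gave at most 346 genes above and 303 below. The SD contrast of -0.29 ranged from -0.335 to -0.248 and the 2-fold share contrast of -5.17 from -5.85 to -4.3 with an animal left out, all at the smallest p that 4 against 3 can give (exact, 0.0571); for genes of mean log2 CPM of at least 5 the SD contrast was -0.181.

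Of 1326 values of 78 named genes under the alternatives, 1294 kept their direction and side of the threshold, 11 passed it and 21 in 10 genes changed sign. With no replicate block Col1a1 was at 0.39, and by limma on the differences Myh7 at 0.77. With an animal left out, Myh4 ranged from -0.075 to 0.27, Myh7 from -1.98 to 1.05 and Per2 from -0.16 to 0.11. Without the 4 libraries highest in Prg4, Ccl2 was at 0.89, Myh3 at 0.078, Myh4 at -0.14, Myh7 at 1.96, Col1a1 at 0.59, Per2 at -0.17, Prg4 at 0.0076, Pax7 at 0.036 and Pnpla2 at -0.075. Per2 was at -0.21 without the healthy limb of placebo animal 4, and Fbxo32 at 3.1e-05 without both. Of 561 list medians, 546 moved by less than the SD between animals and 44, in 15 lists, changed sign. The causes were not tested. Depth limits genes near 0.111 to 0.149 CPM, 3 counts.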
